A study of Mus musculus with 6 samples.

Results

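The miR-10 and miR-196 families are miRNAs encoded inside the Hox gene clusters, and their 4 mature 5p members, miR-10a-5p, miR-10b-5p, miR-196a-5p and miR-196b-5p, are described here in white adipose tissue (WAT). The members were chosen by their mature accessions, MIMAT0000648 for miR-10a-5p, MIMAT0000208 for miR-10b-5p, MIMAT0000518 for miR-196a-5p and MIMAT0001081 for miR-196b-5p. All 4 were found among the 707 mature miRNAs that were counted. The study compared WAT of male ApoE-deficient mice after 8 weeks of chronic intermittent hypoxia (CIH), repeated cycles of low and normal oxygen that model obstructive sleep apnea, with WAT of control ApoE-deficient mice. Small RNA sequencing (miRNA-seq) gave 3 libraries per group, control 1 to 3 and CIH 1 to 3. Apolipoprotein E clears lipoproteins from the blood, and because both groups lack it, the comparison is of CIH on this background alone. The labels give the tissue as white adipose tissue and do not name the fat depot, the age of the mice or whether a library comes from a single mouse, so p-values measure the spread between these libraries.

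Hox genes set position along the body axis in the embryo, and many adult tissues, adipose depots included, keep a Hox expression pattern that reflects where they formed. The miRNAs in these clusters are transcribed along with neighbouring Hox genes and also target Hox mRNAs. miR-196 pairs almost perfectly with Hoxb8 mRNA and directs its cleavage, and miR-196a represses Hoxc8 in white fat progenitors, a step known to favour brown adipocyte genes. miR-10a and miR-10b are abundant in many tissues of the trunk and have Hox mRNAs among their known targets.

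The 4 mature sequences are printed from RefSeq (GRCm38.p6), where all 4 names were matched. They are shown because a single base separates the members of each family, and how reads were assigned between them is not given. Capitals mark the seed, bases 2 to 8, with which a miRNA recognises its targets.

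miR-10a-5p: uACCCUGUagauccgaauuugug

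miR-10b-5p: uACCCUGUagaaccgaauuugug

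miR-196a-5p: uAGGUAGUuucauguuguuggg

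miR-196b-5p: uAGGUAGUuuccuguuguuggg

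Counted from 1 at the 5′ end, miR-10a-5p and miR-10b-5p differed only by U12A, and miR-196a-5p and miR-196b-5p differed only by A12C. Both differences lie at position 12, outside the seed, so that the members of a family share the same seed. Among the 1679 mature names in the RefSeq table, the seed ACCCUGU was found in miR-10a-5p and miR-10b-5p alone, and AGGUAGU in miR-196a-5p and miR-196b-5p alone. miR-100-5p, a relative of miR-10 encoded outside the Hox clusters, shared a run of 11 bases with miR-10a-5p but has another seed, as the following line shows.

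miR-100-5p: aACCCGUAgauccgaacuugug

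The 4 mature miRNAs come from 5 hairpins, each in or beside protein-coding Hox genes on the same strand (GRCm38, RefSeq coordinates with GENCODE release M21 genes). Mir10a lies on chromosome 11 (96317165 to 96317274, plus strand) between Hoxb5 and Hoxb4, 993 bp before Hoxb4 and in no other annotated gene. Mir10b lies on chromosome 2 (74726070 to 74726137, plus strand), within an intron of both Hoxd4 and a long transcript of Hoxd3. Mir196b lies on chromosome 6 (52230081 to 52230165, minus strand), where it overlaps exons of 2 of the 5 annotated Hoxa9 transcripts, 1032 bp from Hoxa10.

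The sequence of miR-196a-5p is encoded by 2 hairpins. Mir196a-1 lies on chromosome 11 (96265164 to 96265265, plus strand), 6192 bp before Hoxb9, and Mir196a-2 on chromosome 15 (102973350 to 102973434, plus strand) between Hoxc10 and Hoxc9, in an intron of a long Hoxc5 transcript. Their hairpins are shown with the mature arm in capitals, because this arm is identical and the remainder is not, so counts of miR-196a-5p do not tell the Hoxb and Hoxc loci apart.

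Mir196a-1: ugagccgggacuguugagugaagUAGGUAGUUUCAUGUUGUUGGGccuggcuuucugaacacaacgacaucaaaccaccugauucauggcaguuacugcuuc

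Mir196a-2: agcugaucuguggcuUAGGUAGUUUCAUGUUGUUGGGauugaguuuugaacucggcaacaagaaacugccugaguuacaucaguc

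**Figure D1:**
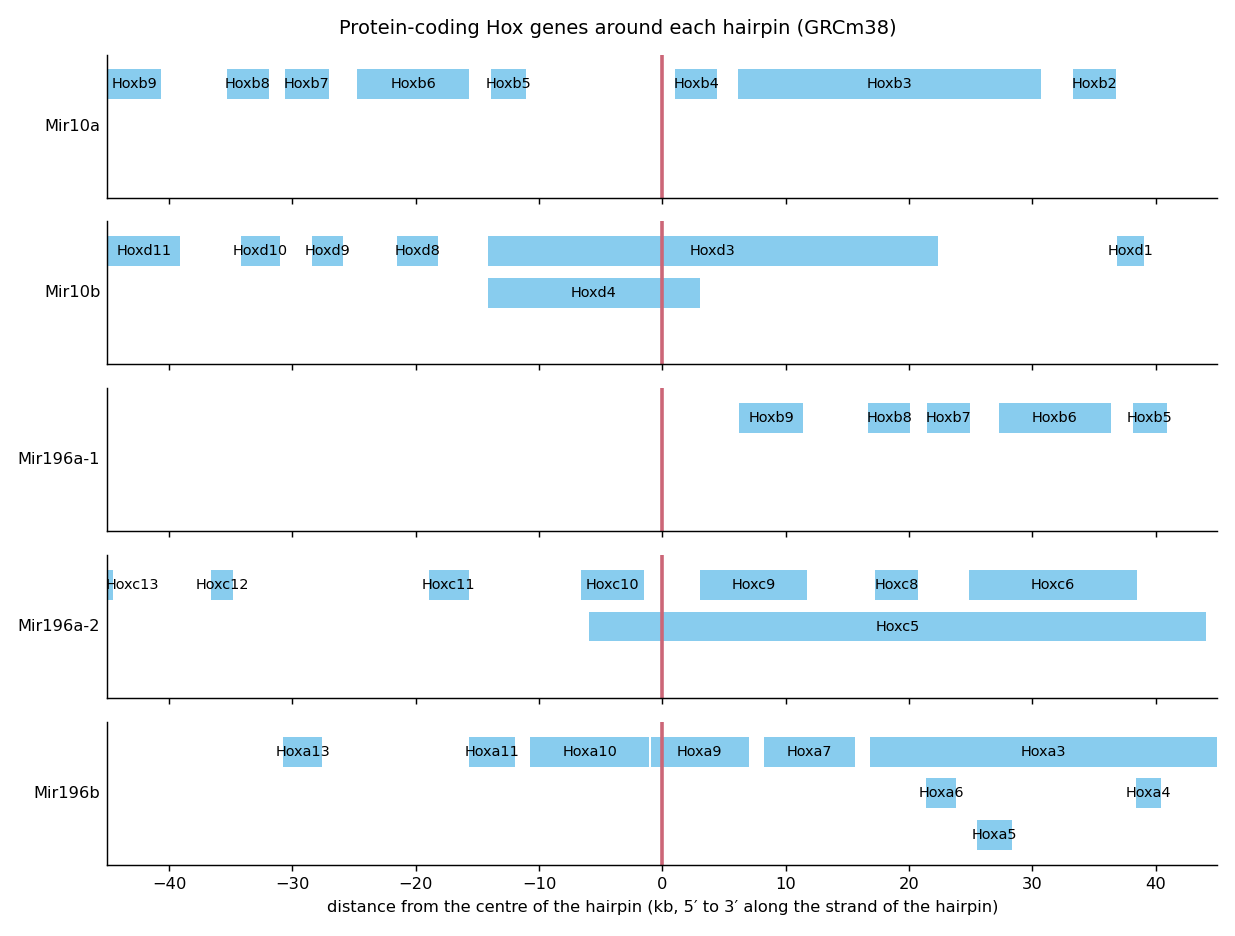
Protein-coding Hox genes (blue bars) within 45 kb of each of the 5 hairpins, with distance in kb from the centre of the hairpin (red line) along its strand. Mir10b, Mir196a-2 and Mir196b fall within the span of an annotated Hox gene, while Mir10a and Mir196a-1 fall between Hox genes.

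The libraries held between 636963 and 4783768 counts, with 487 to 649 miRNAs detected, and a single miRNA took 20.7% to 34.9% of a library's counts. Levels below are TMM-normalized CPM, counts scaled to a common library size, in which the library total is corrected by a factor for composition that ran from 0.575 in control 1 to 1.45 in CIH 3. Control 1 and control 2 stood apart from the other 4 libraries. On log2 CPM across miRNAs they correlated with each other at 0.831 and with the others at 0.595 to 0.712, whereas control 3 and the CIH libraries correlated with one another at 0.952 to 0.974. Of the 284 miRNAs with at least 20 counts in each of control 3 and the CIH libraries, 50 had 0 counts in control 1, 31 had 0 in control 2, and 30 had 0 in both. The tables used here do not pair the accessions of the other miRNAs with names, so the labelled tissue was not checked against marker miRNAs, and the 3p arms of these hairpins were not analysed here.

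miR-10a-5p in all 6 libraries and miR-10b-5p in 5 of them ranked among the 11 most abundant miRNAs, whereas miR-196a-5p and miR-196b-5p were low to moderate. miR-10a-5p ranked between 8 and 11 in every library. Its level was 25535, 30973 and 11996 CPM in control 1, 2 and 3, and 23957, 21742 and 16708 CPM in CIH 1, 2 and 3. The lowest and the highest library were both controls, and the CIH values all fell between them.

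miR-10b-5p, which shares the seed of miR-10a-5p, varied more. Its level was 3537, 40534 and 16588 CPM in control 1, 2 and 3, and 21227, 24037 and 18840 CPM in CIH 1, 2 and 3. Control 1 was the lowest library and control 2 the highest, with an 11.5-fold range within the control group against 1.28-fold within the CIH group. Its rank was 33 in control 1 and between 6 and 10 in the other libraries.

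The counts of miR-196a-5p were 0, 278 and 70 in control 1, 2 and 3, and 133, 31 and 54 in CIH 1, 2 and 3. These counts correspond to 0, 67.1 and 63.1 CPM for the controls and to 106.8, 33.5 and 58.6 CPM in the CIH libraries. CIH 1 was the highest library and CIH 2 the lowest of those with counts, and the 2 control libraries with counts lay between the CIH values.

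For miR-196b-5p the control counts were 0, 380 and 205 and the CIH counts 314, 42 and 135. The levels were 0, 91.7 and 184.8 CPM in control 1, 2 and 3, and 252.2, 45.4 and 146.4 CPM in CIH 1, 2 and 3. The libraries with counts kept the same extremes as for miR-196a-5p, with CIH 1 highest and CIH 2 lowest. Over the control and CIH libraries the ranks of the miR-196 members ran from 135 to 260 where they were detected.

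**Figure D2:**
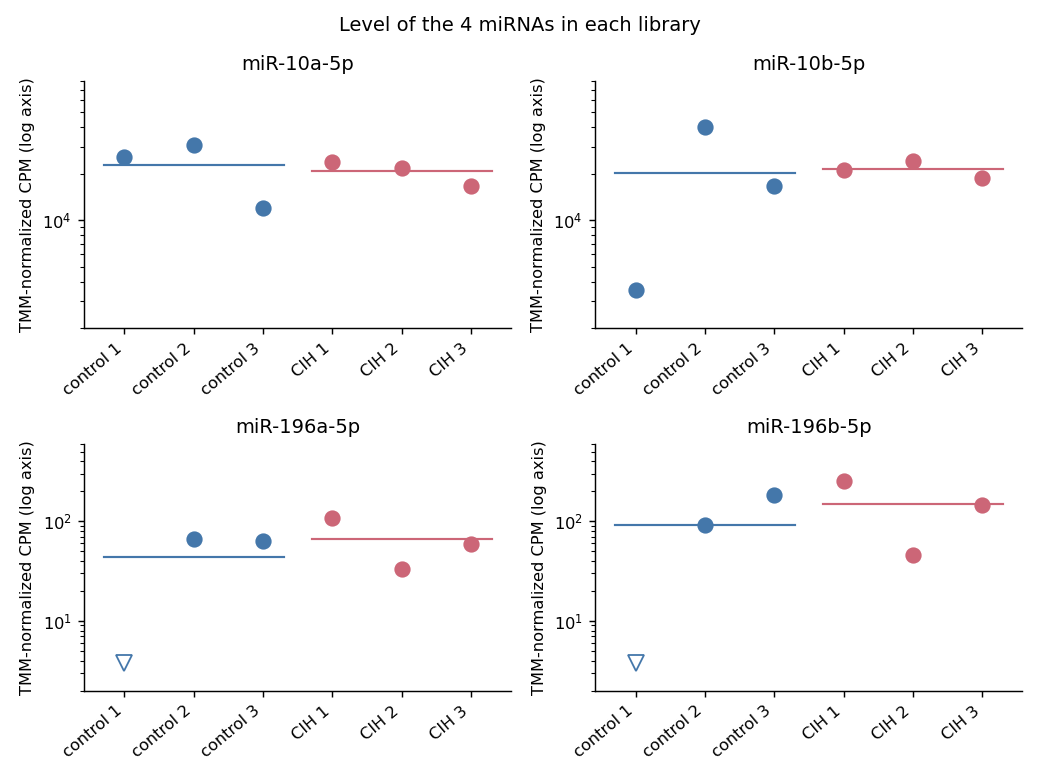
TMM-normalized CPM (log axis) of the 4 miRNAs in each library, with control libraries in blue, CIH libraries in red and lines at the group means. Open triangles mark the level that 3 counts would give in control 1, where miR-196a-5p and miR-196b-5p had 0 counts, and miR-10b-5p is lowest in the same library while miR-10a-5p is not.

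Control 1 was set against the other 5 libraries because it held the lowest value of 3 of the 4 miRNAs. This contrast was chosen after the values were seen and is given without a test. With 0 counts of 1365868, miR-196a-5p and miR-196b-5p were each set at a floor of 3 counts in control 1, which covers counting error only. This floor is 2.20 CPM of the total, or 3.82 TMM-normalized CPM. On the TMM scale and at this floor, miR-196a-5p was at least 16.5-fold lower in control 1 than the median of the other 5 libraries. It was at least 8.78-fold lower than the lowest of them. miR-196b-5p was at least 38.4-fold lower than the median and at least 11.9-fold lower than the lowest. miR-10b-5p was 6.0-fold lower than the median. In a piece of tissue, fewer cells of a type and less RNA per cell cannot be told apart. miR-10a-5p was on the other side of the median by a log2 difference of 0.23.

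Scaling by library totals in place of TMM factors gave a 13.4-fold lower level of miR-10b-5p in control 1. On this scale miR-10a-5p was also lower there, by 1.65-fold, so that its side of the median depends on the scaling. The bounds for miR-196a-5p and miR-196b-5p became at least 38.4-fold and at least 90.6-fold lower.

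These gaps were read against all miRNAs measured in the same way. Of the 228 miRNAs with at least 20 counts in each of the other 5 libraries, 5 had 0 counts in control 1. Both miR-196a-5p and miR-196b-5p were among them. This filter leaves out miRNAs that were low in control 2. Where control 2 was not filtered, 50 of 284 miRNAs had 0 counts in control 1, 30 of them also in control 2. As control 1 was picked for its low member values, 5 of 228 does not measure how rare such 0 counts were. The log2 difference of control 1 from the median of the others was as low as that of miR-196b-5p for 5 of the 228 miRNAs. It was as low as that of miR-196a-5p for 14 and of miR-10b-5p for 31 (13.6%), each count including the member itself. For the miR-196 members, set at the floor, the difference depends only on their level in the other libraries. Only 0 counts were raised to this floor. Because control 1 was picked for its low values, these tallies do not measure rarity either. The SD of this difference over the 228 miRNAs was 2.38, so wide departures in control 1 were not limited to these families. In control 2, which stood apart along with control 1, all 4 miRNAs were detected.

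**Figure D3:**
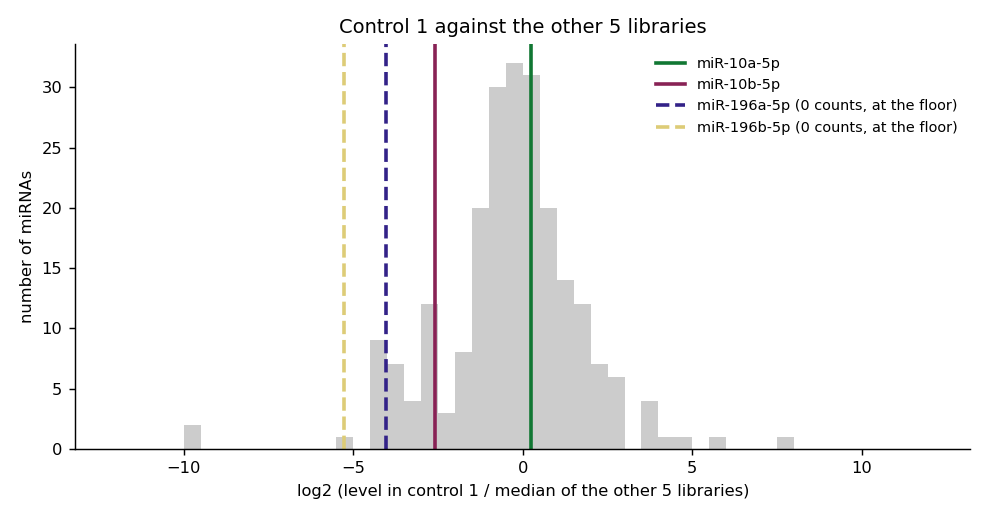
Log2 of the level in control 1 over the median of the other 5 libraries, for the 228 miRNAs with at least 20 counts in each of those 5 (grey bars, number of miRNAs). Lines mark the 4 miRNAs, dashed where control 1 had 0 counts and the floor of 3 counts was used. miR-196b-5p, miR-196a-5p and miR-10b-5p lie in the left tail and miR-10a-5p near 0.

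A ratio of counts within a library does not depend on how the library is scaled, and was used to compare the members with each other. The members of a family have equal lengths, 23 bases for miR-10 and 22 bases for miR-196, and the same bases at both ends. The families differ from each other at their 3′ ends, and small RNA ligation favours some ends over others. How evenly the members were captured was not tested. The ratios are therefore compared between libraries and not read as molar amounts. Intervals are exact 95% binomial intervals and cover counting error only.

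There were 0.139 counts of miR-10b-5p for each count of miR-10a-5p in control 1 (interval 0.133 to 0.144). The ratio was 1.31 (1.30 to 1.32) in control 2 and 1.38 (1.35 to 1.41) in control 3. It was 0.886 (0.871 to 0.901) in CIH 1, 1.11 (1.08 to 1.13) in CIH 2 and 1.13 (1.10 to 1.15) in CIH 3. Control 1 lay below every other library, and controls 2 and 3 lay above the CIH libraries. On the log2 scale the ratio was -0.67 ± 1.89 (SD, n = 3) in controls and 0.05 ± 0.19 (SD, n = 3) after CIH. Without control 1 the control mean was 0.43 ± 0.06 (SD, n = 2), so that the difference between the groups changed from 0.71 to -0.38 and turned its direction. No test was made of this ratio.

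miR-196b-5p exceeded miR-196a-5p in each of the 5 libraries with counts. The ratio was sorted, after its values were seen, into a lower and a higher level. It was 1.37 (1.17 to 1.60) in control 2 and 1.35 (0.832 to 2.23) in CIH 2. It was 2.93 (2.22 to 3.90) in control 3, 2.36 (1.92 to 2.91) in CIH 1 and 2.50 (1.81 to 3.49) in CIH 3. The interval of control 2 did not meet those of the 3 higher libraries, while the interval of CIH 2, which rests on 73 counts, did. Both levels held libraries of both groups. The log2 ratio was 1.0 ± 0.77 (SD, n = 2) in the control libraries with counts and 0.99 ± 0.49 (SD, n = 3) in the CIH group.

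For every 1000 counts of miR-10a-5p and miR-10b-5p summed, the summed counts of miR-196a-5p and miR-196b-5p were 2.22 in control 2 and 8.67 in control 3. They were 7.94 in CIH 1, 1.72 in CIH 2 and 5.77 in CIH 3. In control 1 they were 0, against 0.131 at the floor of 3 counts. Control 2 and CIH 2 again lay below control 3, CIH 1 and CIH 3. This ratio reuses the same miR-196 counts, so it is not a separate observation. The miR-10 family took 1.67% of the counts in control 1 and 3.57% to 6.20% in the other libraries. The miR-196 family took 0.00990% to 0.0347% in the 5 libraries that held it.

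**Figure D4:**
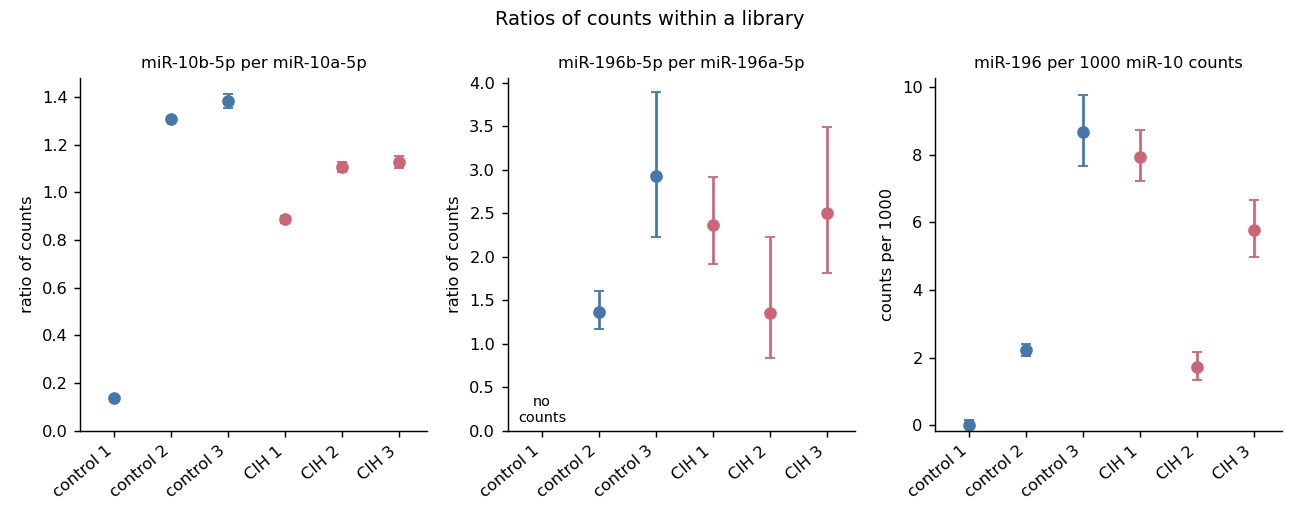
Ratio of miR-10b-5p to miR-10a-5p counts (left), of miR-196b-5p to miR-196a-5p counts (middle) and summed miR-196 counts per 1000 summed miR-10 counts (right) in each library, with exact 95% binomial intervals. Control libraries are blue and CIH libraries red. Control 1 is lowest in the left and right panels and has no miR-196 counts in the middle panel, and control 2 and CIH 2 share low values in the middle and right panels.

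The miRNAs whose log2 CPM followed each member most closely were searched among the 236 others with at least 10 counts in every library, over the 6 libraries and with no test. The highest Pearson correlation was 0.883 for miR-10a-5p (MIMAT0004633), 0.994 for miR-10b-5p (MIMAT0000378), 0.961 for miR-196a-5p (MIMAT0000230) and 0.963 for miR-196b-5p (MIMAT0000526). These 6 points share the libraries and their depth, and control 1 is the lowest point for miR-10b-5p and for both miR-196 members. Of the 3 nearest miRNAs of each of these 3 members, 0 were among the nearest again without control 1, and for miR-10a-5p 1 was.

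The question of the study, which miRNAs CIH alters in WAT, was addressed for these 4 with edgeR's quasi-likelihood test over 633 miRNAs, those with 10 or more counts in all. None of the 4 passed. The Benjamini-Hochberg adjusted p-value was under 0.05 for 0 of the 633 miRNAs (0%). Before adjustment, 16 miRNAs (2.53%) lay under 0.05, of which 0 were members. The count before adjustment ran from 1 without CIH 3 to 225 without control 3. The control and CIH libraries did not overlap for 51 miRNAs (8.06%), and they overlapped for all 4 members.

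miR-10a-5p averaged 22835 ± 9772 CPM (SD, n = 3) in controls and 20802 ± 3715 CPM (SD, n = 3) after CIH. The fold change was -0.13 on the log2 scale (SE 0.68, edgeR adjusted p = 0.942), with a 95% interval from 0.295-fold to 2.81-fold. miR-10b-5p averaged 20220 ± 18764 CPM (SD, n = 3) and 21368 ± 2602 CPM (SD, n = 3) in the same order. Here it was 0.08 (SE 0.94, edgeR adjusted p = 0.979), with an interval from 0.223-fold to 5.0-fold. These intervals leave room for changes of over 2-fold in either direction.

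miR-196a-5p averaged 43.4 ± 37.6 CPM (SD, n = 3) in controls and 66.3 ± 37.3 CPM (SD, n = 3) after CIH, a log2 fold change of 0.60 (SE 1.39, edgeR adjusted p = 0.889). miR-196b-5p averaged 92.2 ± 92.4 CPM (SD, n = 3) and 148.0 ± 103.4 CPM (SD, n = 3), a log2 fold change of 0.68 (SE 1.57, edgeR adjusted p = 0.889). The intervals ran from 0.153-fold to 15.1-fold and from 0.118-fold to 21.7-fold. Both fitted values depended on control 1, with its 0 counts, and on CIH 1, the highest library. Without control 1 the log2 fold changes were 0.05 (SE 0.64) for miR-196a-5p and 0.15 (SE 0.84) for miR-196b-5p, and that of miR-10b-5p became -0.42 (SE 0.69). Without CIH 1 the log2 fold changes were 0.12 (SE 1.69) for miR-196a-5p and 0.12 (SE 1.89) for miR-196b-5p.

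The spread between libraries differed by group. The coefficient of variation of miR-10a-5p was 42.8% among controls and 17.9% among CIH libraries, and that of miR-10b-5p was 92.8% and 12.2%. For miR-196a-5p it was 86.7% and 56.2%, and for miR-196b-5p 100.3% and 69.9%. The order of the groups for the miR-196 members depended on control 1, without which the control values were 4.32% and 47.6% (n = 2), both below those of the CIH libraries. For miR-10a-5p and miR-10b-5p they were then 62.5% and 59.3%, above those of the CIH libraries. The median coefficient of variation over the 395 miRNAs that averaged 10 CPM or more was 84.2% among controls and 27.6% among CIH libraries. Without control 1 the control median was 77.3%, over 393 of them. All members then lay below the control median, whereas with control 1 only miR-10a-5p did. Within the CIH group miR-10a-5p and miR-10b-5p were less variable than the median miRNA, and the miR-196 members more variable. Between CIH 2 and CIH 1 the miR-196 members differed by 3.19-fold and 5.56-fold. The median was not matched for level, and the miR-196 members had far lower counts, where counting error adds more to the spread.

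**Figure D5:**
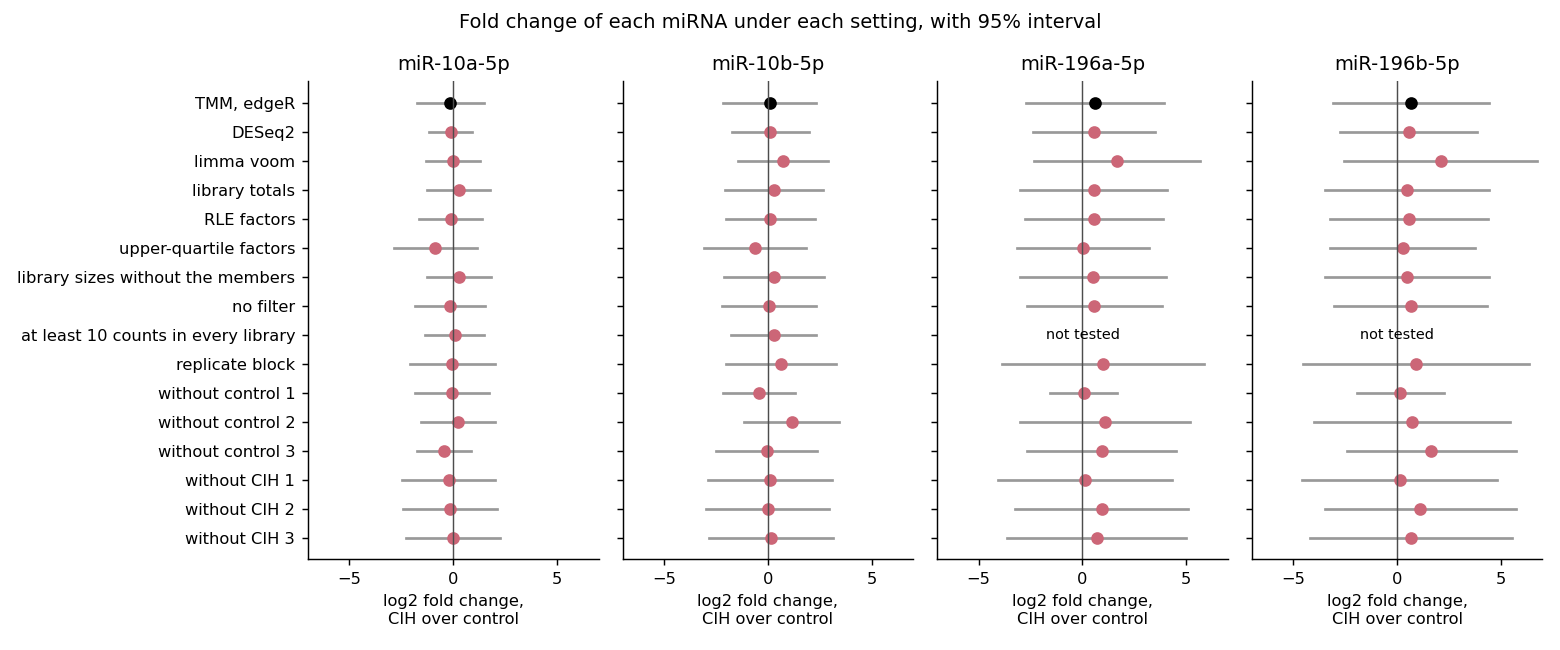
Log2 fold change, CIH over control, of each miRNA (points) with its 95% interval (grey lines) under the original setting (black) and under each alternative (red), including each library left out in turn. Every interval spans 0, and the miR-196 members could not be tested when every library had to hold 10 counts or more.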

How the data were processed

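The authors extracted RNA from WAT with TRIzol, sequenced small RNA libraries on an Illumina instrument and deposited raw read counts per mature miRNA, without normalization. The aligner, the miRNA database release, the genome build and the rule for reads that fit more than 1 miRNA are not given in the sources used here, and with a single base between the members of a family such choices could move reads between them. Libraries were grouped by their titles. Any 2 libraries differed beyond counting noise in a chi-square test, so none was a copy of another. At these depths the test cannot show that libraries come from separate mice. Each library was taken as 1 replicate by its title.

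The quasi-likelihood test of edgeR 4.0.16 in R 4.3.3, with TMM factors and no term but the group, was run on the 633 miRNAs whose counts over the 6 libraries came to 10 or more, with Benjamini-Hochberg adjustment over all of them. Standard errors (SE) follow from each fold change and its F statistic. Log2 ratios had 0.5 added to each count. The alternatives were DESeq2 1.42.0, limma 3.58.1 with voom, library totals without TMM factors, and factors by RLE and by the upper quartile. Library sizes that leave out the 4 members were also used, again without TMM factors. The remaining ones were 2 other filters, the replicate number as a block, and each library left out. The fit was also run on simulated counts, with less spread than these controls and no outlying library. That run does not show what could be detected in these data. Python 3.11.15 with scipy 1.17.1 was used for intervals.

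The 4 members were fixed by accession, which the selection paired with their names. The miRNAs to be named were to include the 3p arms, other Hox cluster and sequence-related miRNAs, the 3 miRNAs with the most similar pattern to each member, the most abundant miRNA of each library and marker lists of other tissues. As no table here pairs their accessions with names, only the nearest miRNA of each member is named, by accession. The members and lists were chosen with earlier results of these data known.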

Additional observations from a re-analysis of the deposited data

How the results depend on the processing

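None of the 4 miRNAs reached an adjusted p-value under 0.05 in any of the 15 refits (lowest 0.506), of which 14 tested the miR-196 members. The count of such miRNAs over the whole table was 0 in every setting but the one without control 3, where 118 were called, so leaving out each library gave 0 to 118. Before adjustment, the count of 16 under 0.05 became 26 with DESeq2, 75 with limma voom, 39 with upper-quartile factors, 6 without CIH 1 or without CIH 2, 1 without CIH 3 and 225 without control 3. Without control 3, the log2 fold changes of the members were -0.46 for miR-10a-5p, -0.06 for miR-10b-5p, 0.92 for miR-196a-5p and 1.64 for miR-196b-5p, with adjusted p-values from edgeR of 0.554, 0.979, 0.681 and 0.506. Over the refits that each lack 1 library, the log2 fold change ran from -0.46 to 0.22 for miR-10a-5p (above 0 without control 2, 0.22), from -0.42 to 1.15 for miR-10b-5p (below 0 without control 1, -0.42, without control 3, -0.06, and without CIH 2, -0.01), from 0.05 to 1.10 for miR-196a-5p and from 0.12 to 1.64 for miR-196b-5p.

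The direction of miR-10a-5p turned with library totals (0.27), library sizes without the members (0.28) and a filter of 10 or more counts per library (0.060), and that of miR-10b-5p with upper-quartile factors (-0.63). These scalings moved the median of all miRNAs tested from 0.07 to 0.33 with library totals and 0.35 without the members. With upper-quartile factors it was -0.52. The refit without the members also used no TMM factors, as with library totals, so it does not isolate the effect of leaving the members out. The miR-196 members kept their direction in all 14 refits that tested them, but limma voom raised their log2 fold changes to 1.68 and 2.09. The cause was not tested. That filter left out both miR-196 members by construction.

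Replicate numbers 1, 2 and 3 occur in both groups. Deviations from the group mean correlated at 0.353, -0.116 and 0.0195 between libraries of equal number. Libraries of unequal number were not compared in this way, so these values cannot decide whether the libraries are paired. With this number as a block, 0 miRNAs were called by edgeR, 3 had an unadjusted p-value under 0.05, and the log2 fold changes were -0.04, 0.62, 0.98 and 0.90 for miR-10a-5p, miR-10b-5p, miR-196a-5p and miR-196b-5p. The difference between the groups in the log2 ratio ran from -0.38 to 1.28 for miR-10b-5p to miR-10a-5p, from -0.55 to 0.54 for miR-196b-5p to miR-196a-5p and from -0.03 to 4.29 for the miR-196 to the miR-10 family over the same refits. For the last of these, the value depends on the amount added to the 0 counts of control 1.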
